A study of Mus musculus with 4 samples.

Results

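Integrin and laminin subunit genes were followed in mouse primary myotubes treated with EDA-A2, the ligand of the TNF receptor superfamily member EDA2R. Members were the protein-coding genes named Itga or Itgb with a number, the platelet alpha chain Itga2b included, and those named Lama, Lamb or Lamc with a number. The rule used gene names and no measured value. It found 31 genes among the 53647 in the deposited tables: 12 integrin alpha chains, 8 integrin beta chains, 5 laminin alpha chains, 3 laminin beta chains and 3 laminin gamma chains. Alpha chains with a letter in place of a number, such as Itgav, fall outside the rule and are described with the partner genes.

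Myoblasts of wild-type (WT) pups aged 2 to 3 days, taken from the limb muscles, were differentiated into myotubes in horse serum and either left as controls or given recombinant EDA-A2 at 250 ng/mL for 24 h. All cultures were harvested at 72 h after differentiation was started, and 2 libraries per condition were sequenced. The labels do not say whether the 2 libraries of a condition come from separate animals or cultures. The p-values below therefore measure only the spread between these libraries, which may be technical. The tests share information on spread across genes, so a p-value does not rest on its own gene's libraries alone. A culture of this kind has no nerve, no tendon and no blood flow, and it models newly formed myotubes rather than adult fibres.

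Laminins are cross-shaped trimers of an alpha, a beta and a gamma chain, and they form the sheet of the basement membrane that surrounds each muscle fibre. Integrins are receptors made of an alpha and a beta chain, which bind laminin, fibronectin or collagen outside the cell and attach to talin and other adaptors inside it. In adult muscle, the laminin trimer that contains Lama2 and the receptor made of Itga7 and Itgb1 link the fibre to its basement membrane, and inherited loss of LAMA2 or ITGA7 causes congenital muscle disease in humans.

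The libraries held 29444155 to 29746863 counts on genes, and 3 counts, the most that a count of 0 allows, correspond to 0.101 to 0.102 CPM, which are counts scaled to a common library total. Such limits cover counting error only. The treated libraries responded: Nfkb2, a subunit of noncanonical NFκB, had 1008 and 1005 normalised counts in the controls and 3660 and 3808 after EDA-A2. All 7 myotube markers examined were expressed, from 12.1 FPKM for Ckm to 1638 FPKM for Acta1 in the controls, and their summed level was 19860 and 18681 CPM in the controls against 14109 and 14406 after EDA-A2. Endothelial, leukocyte and Schwann cell markers summed to 0.997 to 3.01 CPM in each library, with Tie1, Cd3e, Adgre1 and Sox10 at 0 or 1 count. The 5 markers of smooth muscle and pericytes summed to 567 to 741 and the 3 of myoblasts to 142 to 167 CPM. Most of the smooth muscle and pericyte sum was Acta2, with 15255 to 21639 counts, while Myh11 had 5 in every library. These markers did not move together: log2 fold changes after EDA-A2 were 0.23 for Acta2, 0.42 for Rgs5 and -0.86 for Cspg4. Pdgfrb was called lower (-0.45, edgeR adjusted p = 0.0125). The 4 markers of dividing cells summed to 655 to 779 CPM. The sum of 6 fibroblast markers was 325 CPM in control replicate 1 and 173 to 210 in the other libraries, following Col1a1. Pdgfra and Dcn were instead lowest in control replicate 1, and Lum and Thy1 were at 0 counts throughout. In bulk RNA, fewer cells of a type and less RNA per cell cannot be told apart.

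Levels of different chains were compared per length, as FPKM (counts divided by merged exon length and library size). The integrin pool was dominated by Itgb1, the beta chain shared by the laminin, fibronectin and collagen receptors, with 260.0 ± 6.58 FPKM in control myotubes (SD, n = 2). Itga7, the alpha chain of the adult muscle laminin receptor, was the next most abundant integrin at 80.2 ± 0.473 FPKM. It was followed by Itga5 of the fibronectin receptor at 39.2 ± 0.944 and by Itga6, another laminin-binding chain, at 20.1 ± 1.89 FPKM. Itgav, which is not a member, was at a level close to that of Itga6, with 21.5 FPKM. With the length of the canonical transcript, Itga6 (51.8) came before Itga5 (47.7 FPKM). Itgb5 (12.03 ± 1.08), Itgb6 (9.67 ± 0.0193), Itga3 (7.53 ± 0.819), Itga9 (4.67 ± 1.17), Itgb4 (4.34 ± 0.849) and Itgb3 (3.54 ± 0.852 FPKM) formed a middle range. Within it, Itga9, Itgb4 and Itgb3 lay within 1 SD of their neighbours. The remaining 10 integrins were at 0.114 to 1.30 FPKM, with the collagen-binding chain Itga2 the lowest. The leukocyte chain Itgb2 had 26 to 32 counts per library.

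Among the laminins, Lamb1 (35.2 ± 0.167 FPKM), Lamc1 (30.1 ± 0.510), Lama5 (26.6 ± 1.04) and Lamb2 (22.8 ± 0.302) were the most abundant in control myotubes. Lama2, the alpha chain that defines the adult muscle trimer, came after them at 8.13 ± 0.432 FPKM. Lamb3 (1.96 ± 0.652), which pairs with Lama3 in epithelial laminin, was detected, but Lama3 itself had 6 to 9 counts per library and was the only member under the expression filter. Lama4 was at 0.810 ± 0.0263, Lamc3 at 0.138 ± 0.0670 and Lama1, the early embryonic alpha chain, at 0.0745 ± 0.00388 FPKM. Summed over their chains, laminin alpha and gamma genes were at similar levels, 35.6 ± 0.629 and 33.1 ± 0.594 FPKM, and the beta genes were higher at 59.9 ± 0.517.

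**Figure D1:**
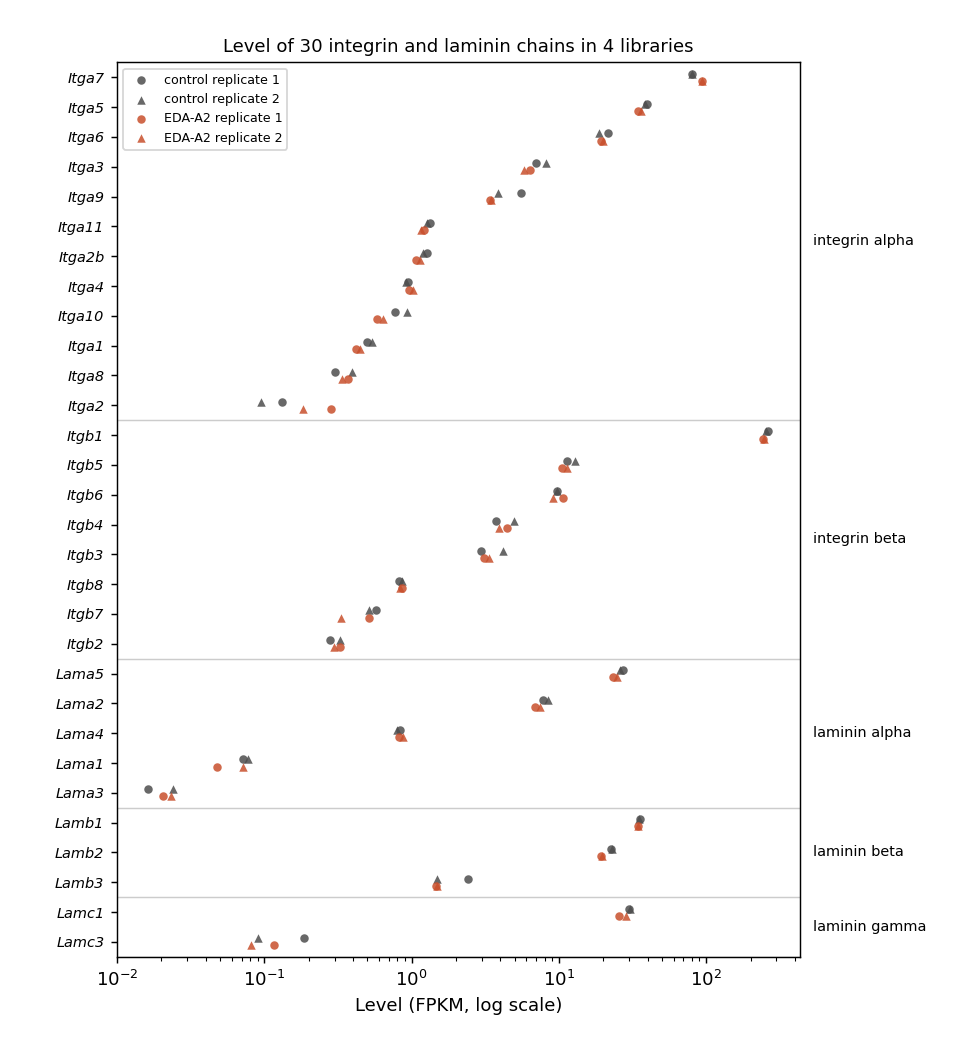
Level of 30 chains in the 4 libraries, in FPKM on a log axis (grey, control; orange, EDA-A2; circle, replicate 1; triangle, replicate 2), grouped by class and ordered by control level. Itgb1 and Itga7 lead the integrins and Lamb1 the laminins, and the levels span from 0.0162 FPKM for Lama3 to 265 FPKM for Itgb1.

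The make-up of each class was then expressed as the share of its summed FPKM, a measure that does not depend on how libraries are scaled to each other. Itga7 held 50.3% and 51.9% of the integrin alpha pool in the controls and 57.6% and 57.3% after EDA-A2, so the groups did not overlap. The share of Itga5 was 25.1% and 24.9% in the controls and 21.3% and 21.96% after EDA-A2, again without overlap. Itgb1 kept a similar part of the beta pool, with 90.0% and 88.5% in the controls against 88.9% and 89.4%. The ratio of Itga7 to Itgb1 was 0.302 and 0.316 in control and 0.382 and 0.382 in EDA-A2-treated myotubes. With canonical transcript lengths it was 0.513 and 0.536 against 0.649 and 0.65. With 2 libraries per condition, the exact two-sided permutation test of a single value cannot reach 0.05, so shares and ratios are given as values without a test.

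Lama5 made up 75.7% and 73.5% of the laminin alpha pool in control and 74.8% and 74.5% in EDA-A2-treated myotubes, and Lama2 21.7% and 24.0% against 22.3% and 22.5%. The groups overlapped for both. In the beta pool, Lamb1 held 58.6% and 58.9% in the controls and 62.2% and 62.0% after EDA-A2. The mean level of Lamb1 itself was not higher, at 35.2 FPKM in control and 34.3 after EDA-A2. The summed beta pool was at 59.9 and 55.3 FPKM. Lamb2, the beta chain of the synaptic basement membrane, held 37.4% and 38.6% against 35.1% and 35.4%. The ratio of Lamb1 to Lamb2 therefore lay at 1.57 and 1.53 in control and at 1.77 and 1.75 in EDA-A2-treated myotubes, and with canonical transcript lengths at 2.68 and 2.61 against 3.03 and 3.00. The levels of shares depend on the length used: with canonical transcripts the control share of Lama5 was 60.7% and that of Lama2 34.2%. Lamc1 held 91.2% and 91.1% of the gamma pool in the controls and 89.9% and 90.9% after EDA-A2.

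**Figure D2:**
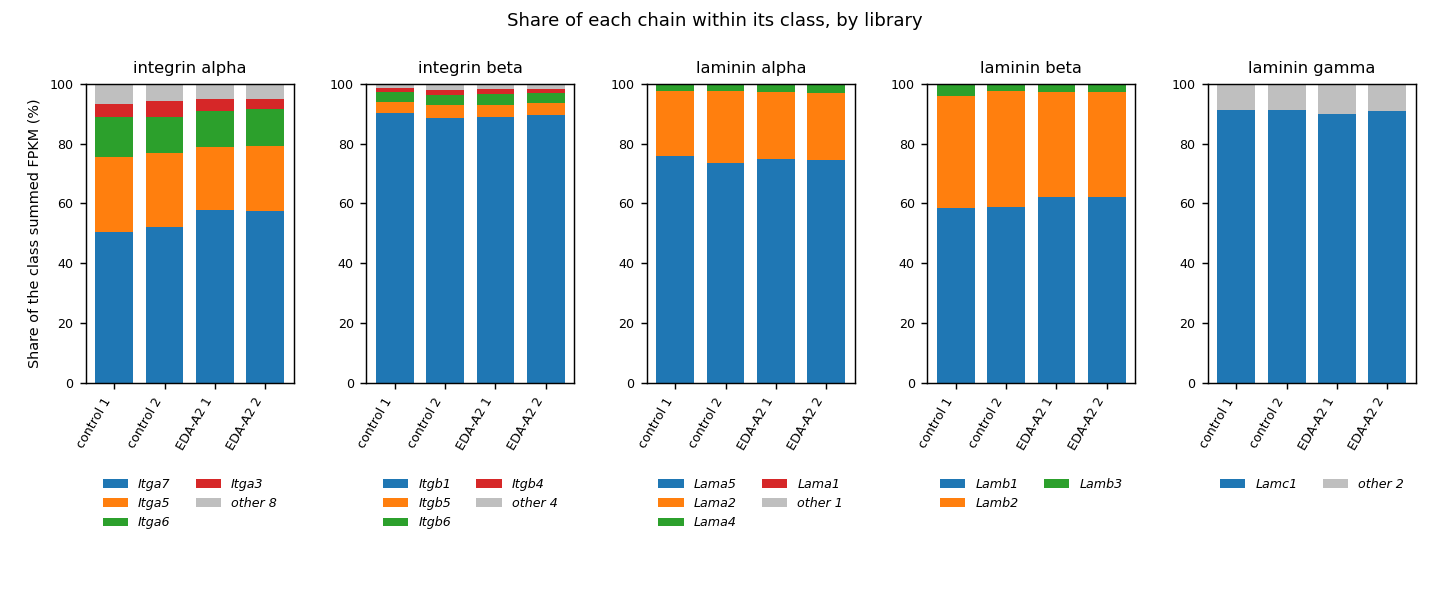
Share of the summed FPKM of each class held by its chains (%, stacked bars, 1 bar per library). Itga7 goes from 50.3% and 51.9% to 57.6% and 57.3% of the integrin alpha pool, Lamb1 from 58.6% and 58.9% to 62.2% and 62.0% of the laminin beta pool, and the laminin alpha pool keeps Lama5 at 73.5% to 75.7%.

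Differences between EDA-A2-treated and control myotubes were tested gene by gene. No integrin or laminin chain passed: 0 of the 30 members tested were called higher or lower by the edgeR quasi-likelihood test (Benjamini-Hochberg adjusted p under 0.05 over 15173 genes), where 4.57% of all genes were called, 2.45% higher and 2.13% lower. At an unadjusted p-value under 0.05 there were 12 members, 2 of them higher (Itga2 and Itga7) and 10 lower, or 40% of those tested against 15.6% of all genes. Scaled to total counts, 6 members (20%) were at this level by edgeR, against 16.8% of all genes. Control and EDA-A2 libraries did not overlap for 18 members (60%), against 45.0% of all genes. Most members lay below 0: 22 of 30 had a negative log2 fold change, with a median of -0.14 over the members and of -0.00 over all genes tested. The members' median was -0.09 without EDA-A2 replicate 1, and -0.08 under total counts, where that of all genes was 0.05. By class, 13 of 20 integrins (65%) and 9 of 10 laminins (90%) were below 0, against 50.5% of all genes tested. Scaled to total counts, 12 rather than 8 members lay above 0, because 4 members changed sign, Itga6, Itgb4 and Lamb1 among them, and Itga7 was called (adjusted p = 0.0202 in edgeR).

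**Figure D3:**
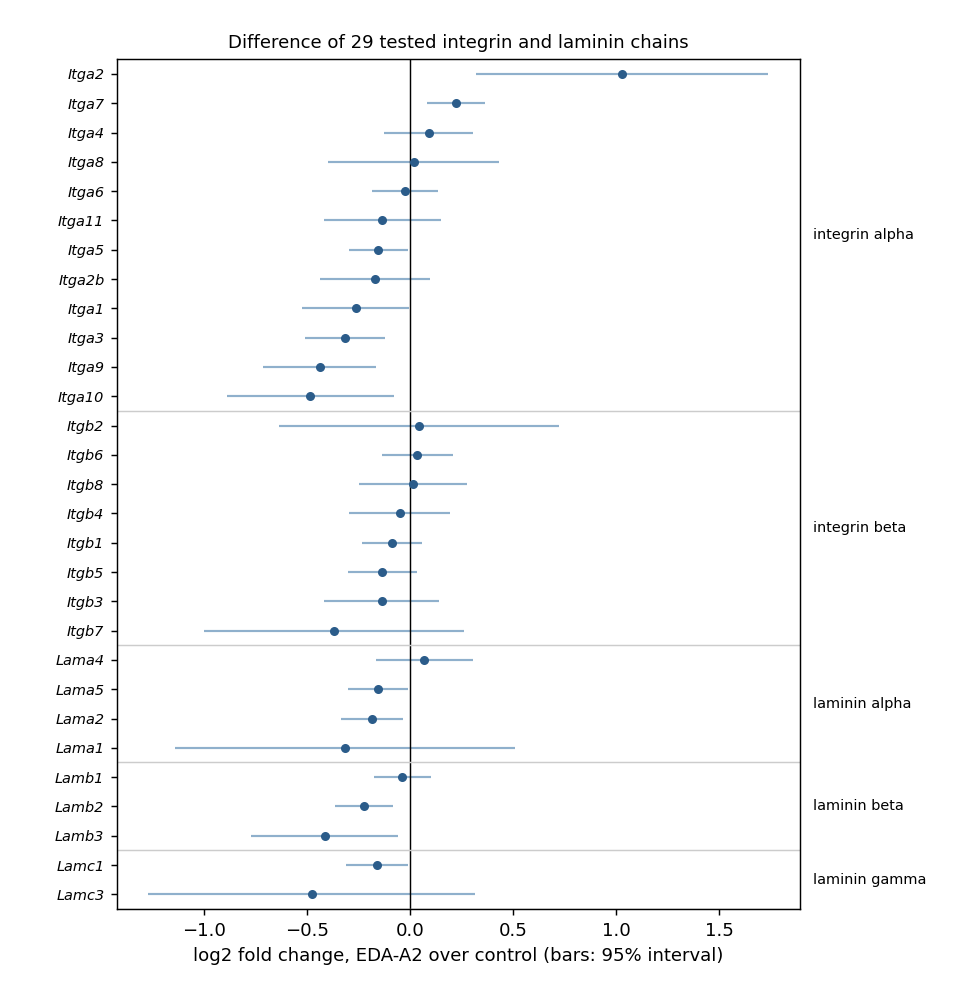
Log2 fold change of 29 tested chains (points) with 95% intervals (bars), EDA-A2 over control, by class, from edgeR. Points below 0 make up 21 of 29, and the intervals of Itga2 and Itga7 lie above 0, while those of 10 chains lie below it.

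The members with the smallest p-values were Itga3, Itga9, Lamb2, Itga7 and Itga2, and the sequences before the start sites of 3 of them are shown so that their promoters can be set side by side. The 250 bases upstream of the RefSeq start are given 5′ to 3′ on the gene's strand, in build GRCm38.p6. RefSeq held windows for 20 of the 31 members, and for 17 of them the start lay within 1000 bases of the 5′ end of the gene. Itga7 had no window, and that of Itga9 belonged to a start inside the gene, 104983 bases from its 5′ end. The windows lie at chr13:114932101-114932350 (minus strand, Itga2), chr11:95076715-95076964 (minus, Itga3) and chr9:108479612-108479861 (plus, Lamb2). Capitals mark matches to 4 motifs searched on both strands: an NFκB site (GGGA and TTCC with 2 bases between them), the AP-1 site TGANTCA, the E-box CAGCTG bound by myogenic factors, and the GC box GGGCGG.
Itga2: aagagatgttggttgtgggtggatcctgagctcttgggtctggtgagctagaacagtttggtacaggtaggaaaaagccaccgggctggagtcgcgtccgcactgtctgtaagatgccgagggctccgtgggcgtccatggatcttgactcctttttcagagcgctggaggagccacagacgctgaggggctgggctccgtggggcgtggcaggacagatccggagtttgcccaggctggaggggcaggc
Itga3: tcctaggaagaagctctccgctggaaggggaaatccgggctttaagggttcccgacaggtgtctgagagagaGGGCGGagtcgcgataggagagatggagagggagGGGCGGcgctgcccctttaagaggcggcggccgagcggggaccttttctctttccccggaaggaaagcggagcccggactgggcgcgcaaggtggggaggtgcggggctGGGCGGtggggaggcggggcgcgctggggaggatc
Lamb2: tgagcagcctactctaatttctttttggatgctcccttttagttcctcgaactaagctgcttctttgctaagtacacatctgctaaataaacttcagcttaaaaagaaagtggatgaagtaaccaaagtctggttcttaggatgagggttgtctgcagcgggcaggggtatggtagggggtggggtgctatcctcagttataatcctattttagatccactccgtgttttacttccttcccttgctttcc
Itga3 carried 3 GC boxes, at positions -178, -144 and -35 from the start. Itga2 and Lamb2 had none of the 4 motifs in these windows, and the GC content was 60.8% for Itga2, 67.6% for Itga3 and 43.6% for Lamb2. Over the 17 members with a window near the 5′ end, the E-box was found in 4 and the GC box in 7, and the NFκB and AP-1 sites in 0. Of all 27452 RefSeq windows chosen in the same way, 12.7% held the E-box, 33.4% the GC box, 1.21% the NFκB site and 6.71% the AP-1 site. A match is only a run of letters, and the absence of one in this window says nothing about binding elsewhere.

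None of the 3 laminin-binding alpha chains passed the test, with log2 fold changes of 0.22 for Itga7, -0.32 for Itga3 and -0.02 for Itga6. Itga7 (ENSMUSG00000025348, chromosome 10 from 128769621 to 128794169 of GRCm39) had 19599 and 19762 normalised counts in the controls and 22851 and 23123 after EDA-A2. Both EDA-A2 values lay above both controls, and the pairs were tight. The log2 fold change was 0.22 ± 0.07 (standard error, SE, edgeR adjusted p = 0.0741), or 16.8% higher with a 95% interval of 5.90% to 28.8%. Dropping single libraries gave 0.21 to 0.23, and the DESeq2 Wald test called it (adjusted p = 0.0390). All 7 myotube markers were below 0, though Des (log2 fold change -0.02) and Mymk (-0.01) lay near 0 with overlapping groups. Itga7 differed in direction from Myh3 (-0.57) and Acta1 (-0.52), the 2 markers that were called lower. Whether the makeup of the cultures has a part in this was not tested.

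Itga3 (ENSMUSG00000001507, chromosome 11 from 94935296 to 94967682) had 1197 and 1397 normalised counts in control and 1093 and 992 in EDA-A2-treated myotubes. The groups did not overlap, but the difference between the nearest libraries was smaller than that between the 2 controls. Its log2 fold change was -0.32 ± 0.09 (SE, edgeR adjusted p = 0.0694), and it shrank to -0.20 without control replicate 2. Itga6, whose receptors bind laminin in myoblasts as well as in epithelia, had 7207 and 6306 normalised counts in control and 6547 and 6735 after EDA-A2, all inside the range of the controls. Its log2 fold change was -0.02, with a 95% interval of -11.95% to 9.72%.

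The fibronectin receptor chain Itga5 had 6284 and 6074 normalised counts in control and 5423 and 5689 in EDA-A2-treated myotubes. The EDA-A2 libraries were lower without overlap, with a log2 fold change of -0.15 ± 0.07 (SE, edgeR adjusted p = 0.271). The other chains that bind the RGD motif of matrix proteins were sparse: Itga8, the nephronectin receptor chain, had 93 to 125 counts per library, with a log2 fold change of 0.02. Itga2b, known from platelets, had 263 to 301 counts and a log2 fold change of -0.17.

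Collagen-binding alpha chains were all low in these myotubes. Itga2 (ENSMUSG00000015533, chromosome 13 from 114969617 to 115068636) had the largest fold among the members, with 27.8 and 20.2 normalised counts in control and 59.8 and 38.3 after EDA-A2. Both EDA-A2 values were above both controls, but they differed from each other by more than the controls did. Its log2 fold change was 1.03 ± 0.33 (SE, edgeR adjusted p = 0.106), and it ranged from 0.68 without EDA-A2 replicate 1 to 1.31 without EDA-A2 replicate 2. The other 3 collagen-binding chains had lower values after EDA-A2 without overlap, as 45.0% of all genes did in either direction, and 0 of 3 were called. Itga10 had 114 and 142 counts in control and 91 and 99 after EDA-A2 (log2 fold change -0.48), Itga1 had 306 and 336 against 270 and 285 (-0.26), and Itga11 had 234 and 231 against 224 and 216 (-0.13). Itga10 shares 33.5% of its exon length with Gm42957 on the same strand, which had 1 to 3 counts per library. Itga1 and Itga2 share 10.2% and 6.22% with Mocs2 on the opposite strand. Mocs2 had 1032 to 1174 counts per library, against 20 to 61 for Itga2. The counts of Itga10, Itga1 and Itga2 are therefore less certain.

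Itga9 and Itga4, which bind ligands such as VCAM1 and osteopontin, lay on opposite sides of 0. Itga9 (ENSMUSG00000039115, chromosome 9 from 118435722 to 118730072) had 1256 and 877 normalised counts in control and 781 and 792 in EDA-A2-treated myotubes. Control replicate 1 stood apart from the other 3 libraries. Its log2 fold change was -0.44 ± 0.13 (SE, edgeR adjusted p = 0.0694), but it was -0.16 without control replicate 1. Col1a1, which carries the fibroblast marker sum, was likewise highest in that library, at 9277 normalised counts against 5088, 4675 and 5802 in the others. The fibroblast markers Pdgfra and Dcn were lowest there, at 247 and 75.2 normalised counts against 288 to 302 and 99.8 to 135. Col1a2 had 12 to 21 counts per library. The part of fibroblasts in the result was not tested. Itga4 had 468 and 452 normalised counts in control and 474 and 504 after EDA-A2, with a log2 fold change of 0.09. Itga4 shares 20.8% of its exon length with Cerkl on the opposite strand, which had 0 to 4 counts per library.

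No integrin beta chain had an unadjusted p-value under 0.05. Itgb1 (ENSMUSG00000025809, chromosome 8 from 129411876 to 129460618) had 46742 and 45098 normalised counts in control and 43047 and 43534 in EDA-A2-treated myotubes. Both EDA-A2 values were below both controls, and the gap was smaller than the distance between the 2 controls. The log2 fold change was -0.09 ± 0.07 (SE, edgeR adjusted p = 0.639), with a 95% interval of -14.8% to 4.30%. Itgb5, an Itgav partner, had 2353 and 2673 normalised counts against 2203 and 2376 (-0.13, and -0.04 without control replicate 2). Itgb3 had 576 and 812 against 609 and 654 (-0.14), with a change of sign to 0.13 without control replicate 2. Itgb6 (log2 fold change 0.04), Itgb8 (0.02), Itgb2 (0.04) and Itgb4 (-0.05) lay near 0 with overlapping groups. Itgb7 had 29 to 48 counts per library and a log2 fold change of -0.37. Itgb4 shares 14.9% of its exon length with Galk1 on the opposite strand, which had 2631 to 3346 counts.

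The laminin alpha chains of muscle, Lama2 and Lama5, both had log2 fold changes below 0, and neither passed the test. Lama2 (ENSMUSG00000019899, chromosome 10 from 26856032 to 27495754) had 4128 and 4451 normalised counts in control and 3640 and 3916 in EDA-A2-treated myotubes. The groups did not overlap, and the gap between them was smaller than the spread within either. The log2 fold change was -0.18 ± 0.07 (SE, edgeR adjusted p = 0.200), or 11.9% lower with a 95% interval of -20.7% to -2.15%. Lama5, a chain of fetal muscle and of many other basement membranes, had 9248 and 8748 normalised counts against 7824 and 8331, with a log2 fold change of -0.16 (edgeR adjusted p = 0.280). Lama4, found in vessels and nerve, had 385 and 368 against 381 and 409 (0.07), and Lama1 had 20 and 22 counts against 14 and 21 (-0.32).

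All 3 laminin beta chains had log2 fold changes below 0, with 0 of 3 called, and their groups did not overlap, as for 45.0% of all genes. Lamb2 (ENSMUSG00000052911, chromosome 9 from 108356935 to 108367729) had 4064 and 4140 normalised counts in control and 3493 and 3526 in EDA-A2-treated myotubes. The gap between the groups was far wider than the spread within them. The log2 fold change was -0.22 ± 0.07 (SE, edgeR adjusted p = 0.0713), or 14.4% lower, and it ranged from -0.24 to -0.21 when single libraries were dropped. Lamb1 (ENSMUSG00000002900, chromosome 12 from 31315030 to 31379658) had 11212 and 11137 normalised counts against 10904 and 10886, with a log2 fold change of -0.04 ± 0.07 (SE, edgeR adjusted p = 0.873) and a 95% interval of -11.5% to 7.38%. Lamb3 had 588 and 364 normalised counts in control and 355 and 360 after EDA-A2. As with Itga9, control replicate 1 stood apart, and the log2 fold change of -0.41 became -0.03 without that library.

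The laminin gamma chains were led by Lamc1 (ENSMUSG00000026478, chromosome 1 from 153094597 to 153208774), the gamma chain of nearly all laminins. It had 9973 and 10215 normalised counts in control and 8587 and 9492 in EDA-A2-treated myotubes. The EDA-A2 libraries were lower without overlap but differed from each other by more than the nearest libraries of the 2 groups did. The log2 fold change was -0.16 ± 0.07 (SE, edgeR adjusted p = 0.284), and it ranged from -0.23 to -0.09 when single libraries were dropped. Lamc3 had 50 and 25 counts against 33 and 23, with a log2 fold change of -0.48 that turned to 0.13 without control replicate 1.

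Partner genes on both sides of the membrane were examined as lists, and some of them did pass the test. The lists were chosen with earlier results of these data known, so the shares called in them are descriptions and no test of a list. Of 22 integrin adaptors and adhesion kinases, 21 were tested, 1 was called higher and 3 lower (19.0%, against 4.57% of all genes). The change involved a pair of paralogues, since Lims1 and Lims2 encode PINCH1 and PINCH2, alternative partners of integrin-linked kinase. Lims1 rose from 5335 and 5874 to 6638 and 6845 normalised counts, a log2 fold change of 0.27 ± 0.07 (SE, edgeR adjusted p = 0.0434). Lims2 fell from 123 and 103 to 43.1 and 43.2 normalised counts, a log2 fold change of -1.38 ± 0.23 (SE, edgeR adjusted p = 0.00187). Per length, Lims2 was the minor form, with 1.15 FPKM in control against 21.1 for Lims1.

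Flnc, the muscle filamin of Z-discs and adhesion sites, fell from 46727 and 37199 to 28926 and 28394 normalised counts (log2 fold change -0.55, edgeR adjusted p = 0.00211). Its controls differed from each other by more than the nearest libraries of the groups did. Tln2, the talin form of striated muscle, fell from 6744 and 6152 to 5163 and 5422 (log2 fold change -0.28, edgeR adjusted p = 0.0307). The remaining core of the adhesion complex did not pass the threshold. Nearest to it were Pxn (log2 fold change 0.24, edgeR adjusted p = 0.0789) and Zyx (-0.21, edgeR adjusted p = 0.135). Integrin-linked kinase Ilk had a log2 fold change of -0.10, Parva 0.02, the talin Tln1 -0.08 and melusin, encoded by Itgb1bp2, -0.12. Of the 21 adaptors tested, 14 were below 0 (66.7%, against 50.5% of all genes tested), with a median of -0.09. Tln2 was not called when scaled to total counts (adjusted p = 0.0743 in edgeR). Neither Lims1 nor Tln2 was called with every gene of at least 1 count tested (adjusted p = 0.280 and 0.240 in edgeR). Fits without 1 library leave a lone library in a group and cannot decide these calls.

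Among 11 integrin ligands other than laminin and collagen, 9 were tested, 1 was called higher and 2 lower (33.3%, against 4.57% of all genes). Npnt, which encodes the Itga8 ligand nephronectin, fell from 20171 and 20863 to 14168 and 14170 normalised counts (log2 fold change -0.53, standard error 0.07, edgeR adjusted p = 0.000190). Spp1, which encodes osteopontin, fell from 47091 and 48306 to 34858 and 35149 (log2 fold change -0.45, edgeR adjusted p = 0.00108). Vcam1, a ligand of the Itga4 receptor and a known NFκB target, rose from 1191 and 1428 to 1816 and 1961 normalised counts (log2 fold change 0.53, edgeR adjusted p = 0.00250). The fibronectin gene Fn1 had a log2 fold change of -0.14 and was not called. In each of the 3 called genes the groups were well apart. Whether they differed from the alpha chains of their receptors (Itga8, Itga9 and Itga4) was not tested.

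Dystroglycan is the other main laminin receptor of muscle, and its sugar chains are built by a set of glycosyltransferases. Dag1 itself had 22104 and 21915 normalised counts in control and 21836 and 22515 in EDA-A2-treated myotubes, with a log2 fold change of 0.01 and a 95% interval of -8.71% to 11.2%. The other genes of this list were examined with it, and all 13 were tested (4.57% of all genes were called). Bcam, a receptor for laminins that contain Lama5, fell from 5173 and 4140 to 3311 and 3445 (log2 fold change -0.46, edgeR adjusted p = 0.00649). Control replicate 1 stood apart, and without it the log2 fold change was -0.29. The list's median was 0.01.

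Basement membrane partners of laminin showed no call among 14 tested of 15, where 4.57% of all genes were called. An unadjusted p-value under 0.05 by edgeR was found for 4 of them (28.6%), against 15.6% of all genes. The list's median log2 fold change was -0.06. The smallest p-values belonged to Tinagl1, with 1304 and 1198 normalised counts against 1029 and 1079 (-0.25), and Col4a2, a collagen IV chain, with 11676 and 10578 against 9675 and 9832 (-0.19). Nid1, which encodes the laminin linker nidogen 1, had 2 to 17 counts per library and was not tested. Of the 6 alpha chains with letter names, 2 were tested. Itgav, the alpha chain that pairs with Itgb3, Itgb5, Itgb6 and Itgb8, had 7958 and 7766 normalised counts in control and 8359 and 8539 after EDA-A2 (log2 fold change 0.10, edgeR adjusted p = 0.513). Itgam, a leukocyte chain, had 18 and 18 counts against 39 and 32 (0.92, edgeR adjusted p = 0.168). The other 4 had at most 8 counts in any library.

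Without control replicate 1 or control replicate 2, edgeR called 0 genes in the whole table, with 2179 and 2449 genes at an unadjusted p-value under 0.05, and in those fits the lone control is assumed to vary like the EDA-A2 libraries. These fits therefore say nothing on single partner genes, whose log2 fold changes without control replicate 1 and without control replicate 2 were -0.56 and -0.51 for Npnt, -0.46 and -0.43 for Spp1 and -1.25 and -1.50 for Lims2. With every gene of at least 1 count tested, edgeR called 86 of 25545 genes, and of the called partner genes above Npnt and Spp1 were still called. Their signs were the same in the 10 alternatives.

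**Figure D4:**
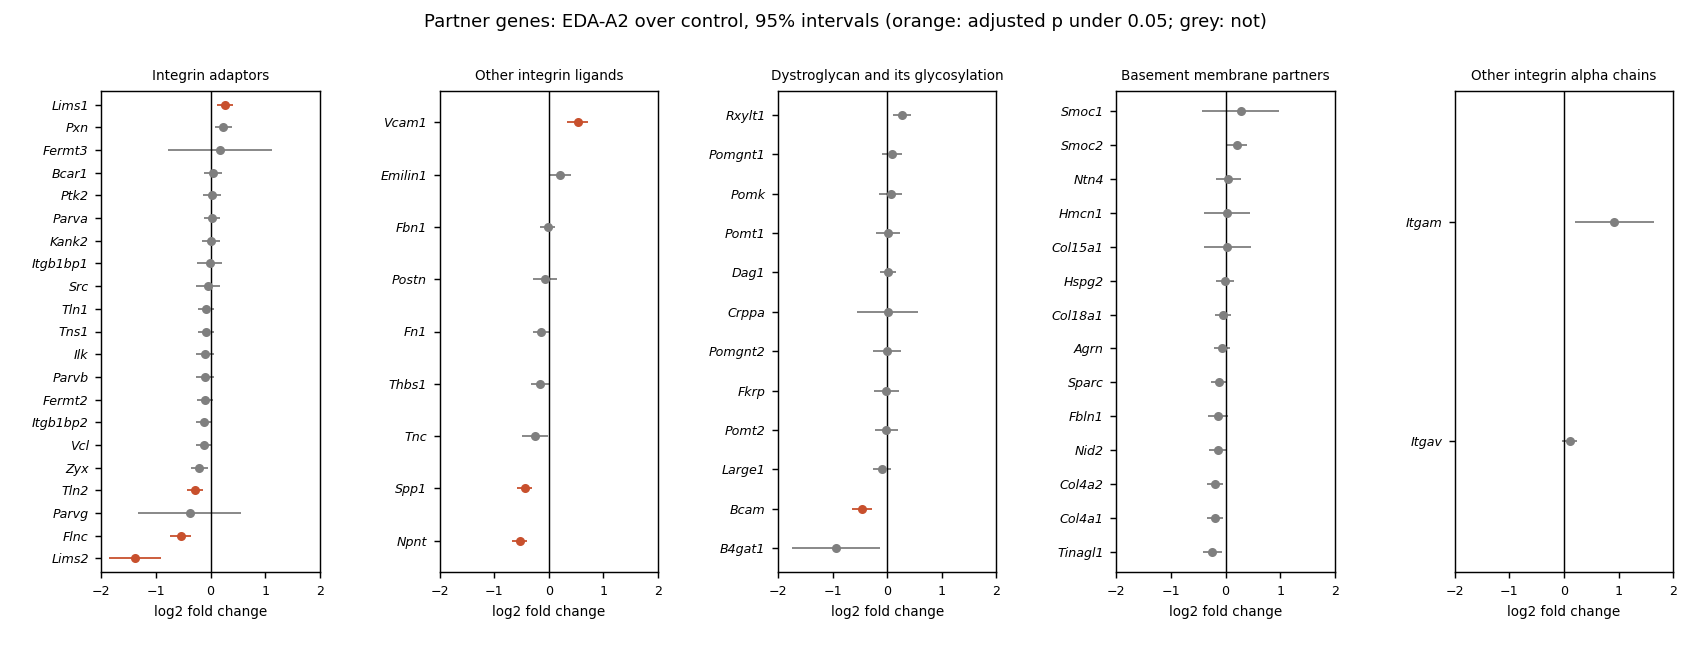
Log2 fold change (points) with 95% intervals (bars) of the tested genes of 5 partner lists, EDA-A2 over control, from edgeR; orange genes passed the adjusted threshold of 0.05. Lims1 and Vcam1 lie above 0 and Lims2, Flnc, Tln2, Npnt, Spp1 and Bcam below it, while no basement membrane partner or other alpha chain passed.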

How the data were processed

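Polyadenylated RNA of 4 mouse primary myotube libraries, 2 control and 2 treated with EDA-A2, was sequenced from a stranded kit. Per the labels and the study's methods, the authors trimmed the reads with Trim Galore 0.6.5, mapped them to GRCm39 with STAR 2.7.3a and counted them with HTSeq 0.11.1. The deposited values are raw counts for each Ensembl gene, neither normalized nor pooled. The strand option and annotation release are not given in the sources used here, which leaves genes with an antisense neighbour uncertain. HTSeq's summary lines name no gene and were not used: 6.68% to 7.40% of pairs had no feature, 0.946% to 0.986% were ambiguous and 4.56% to 4.76% were not unique.

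Symbols, positions and exon lengths came from GENCODE M39 (GRCm39), which matched 52610 of 53647 genes. Counts were tested with edgeR 4.0.16 in R 4.3.3 (TMM, filterByExpr at 10 counts per library and 15 in total, quasi-likelihood test, Benjamini-Hochberg adjustment over 15173 genes, threshold 0.05). Normalised counts refer to the mean effective library size after TMM, and FPKM divides them by merged exon length. Standard errors were derived from the F statistic, and intervals are at 95%. Alternatives were other scalings, filters, DESeq2 1.42.0, a replicate block and leaving out each library. Steps were tested on simulated counts. Replicates differed by more than counting noise (chi-square per gene 10.1 and 4.74). Members and lists were chosen with earlier results of these data known. Full statistics were given for the 6 members with the smallest p-values and for Itga7, Itgb1, Lama2, Lamb1, Lamb2 and Lamc1, and in each partner list for up to 5 called genes or, with none called, for 2. The values of 1 member and 1 partner gene are not reported here, though counts over lists include them.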

Additional observations from a re-analysis of the deposited data

How the results depend on the processing

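With 2 libraries per condition only changes well above the median standard error of 0.11 could be called among the members. Over 6 other scalings, filters and tests, 26 of 30 members kept their sign, and with each library left out 21 did. Itga7 was the 1 member called higher under scaling to total counts and by DESeq2. With the replicate block, 3 of 30 members were called lower (Itga3, Itga9 and Lamb2, adjusted p = 0.0245, 0.00951 and 0.0347 by edgeR). Of all 15173 genes tested in that fit, 1066 were called, 529 of them lower. The labels share replicate numbers but do not say that these mark a pairing, and deviations of same-numbered libraries correlated at 0.130 over genes. Of 694 genes called, 371 were higher and 323 lower, against 485 and 194 with total counts, and 64 and 22 (86 in all) with no filter beyond 1 count in total. Leaving out 1 library gave 0 to 402 genes called, 0 to 238 higher and 0 to 170 lower, and 4 to 11 members above 0, with a median of -0.15 to -0.09.

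The choices on levels were made after seeing the data. With the length of the canonical transcript, control shares were 57.4% for Itga7, 16.8% for Itga5, 85.8% for Itgb1, 60.7% for Lama5, 34.2% for Lama2, 70.3% for Lamb1, 26.6% for Lamb2 and 90.1% for Lamc1, and the shift after EDA-A2 was -2.60 percentage points for Itga5 and 2.91 for Lamb1. With Itgav and the other letter-named chains counted in, Itga7 held 44.9% and Itga5 21.95%, and the shift of Itga7 was 5.34 percentage points.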
